A study of Pelodiscus sinensis with 8 samples.

Results

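The metalloproteinase genes and their inhibitors were described in the interdigital webbing of embryos of the Chinese soft-shell turtle (Pelodiscus sinensis), an aquatic species that keeps webs between its digits. Members were chosen by symbol: every gene named MMP, ADAM or ADAMTS with its number, the ADAMTS-like genes, the TIMP genes and RECK. This gave 45 of the 19328 genes in the table, with 11 MMP, 9 ADAM, 18 ADAMTS, 3 ADAMTS-like and 3 TIMP genes besides RECK. Of these, 44 had enough counts to be tested. MMP13, a collagenase of hypertrophic cartilage and bone, had 0 counts in each of the 8 libraries. Its symbol was not found in RefSeq's ASM4963464v1 annotation, and whether its gene model is sound was not tested.

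RNA came from wild-type embryos at Tokita-Kuratani stage 19 (TK19). The groups were 4 forelimb webs, tagged "ICD" in the labels, and 4 hindlimb webs, tagged "anti-ICD", terms that the labels do not spell out. Webs were numbered from the digit I side, so that web 1 joined digits I and II, and web 4 joined IV and V. Each web of each limb gave 1 library, a pool of 40 tissues from the left and right sides of 20 individuals, and no treatment was named. Each position was pooled once, so the p-values below reflect differences among these pools and not among animals, and all 8 pools drew on the same 20 individuals.

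MMPs are zinc proteases that cut matrix proteins and are held inactive by a propeptide and by TIMPs. ADAMs are membrane proteases that release the outer parts of surface proteins, and ADAMTS enzymes are secreted proteases of proteoglycans, procollagens and microfibrils. In the mouse, ADAMTS5, ADAMTS9 and ADAMTS20 act together on versican while the interdigital web regresses.

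Libraries held 53116512 to 65849337 counts, so the deepest held 1.24 times the counts of the shallowest. Limb mesenchyme markers, the defining genes of this tissue, summed to 1587 to 2418 CPM (counts scaled to effective library size) in forelimb webs and 1612 to 2367 CPM in hindlimb webs, with 5 of 6 under a symbol. Markers of other cells were present: macrophage genes summed to 63.8 to 158 CPM in the forelimb and 69.1 to 138 CPM in the hindlimb, and endothelial genes to 71.5 to 138 and 90.1 to 136 CPM. Epidermal genes summed to 359 to 593 and 370 to 451 CPM, cartilage genes to 204 to 245 and 201 to 310 CPM, and muscle genes to 78.4 to 293 and 126 to 467 CPM. By symbol, 3 of 6 epidermal, 5 of 6 cartilage and 4 of 6 muscle markers were found, and a single gene made up most of each sum. EPCAM held 307 to 533 and 313 to 403 CPM, COL2A1 147 to 200 and 148 to 262 CPM, and ACTC1 63.6 to 230 and 112 to 387 CPM. In bulk tissue, fewer cells of a type and less RNA per cell cannot be told apart. MMP9, MMP14, MMP19, TIMP1, ADAM11, ADAM15, ADAM33 and ADAMTSL2 were not found by symbol and were not analysed here. As 7598 genes carried no symbol, sums and rankings of members cover only the genes found by symbol.

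Levels between genes were compared on TPM (transcript abundance on a fixed total), which divides by gene length. MMP2, gelatinase A, which cuts denatured collagen and basement membrane collagen, averaged 1606 ± 321 TPM (SD over the 8 libraries) and ranked 94 among all genes. Its TPM was 1278, 1907, 2071 and 1774 in forelimb webs 1 to 4 and 1177, 1374, 1489 and 1778 in hindlimb webs 1 to 4. MMP2 alone held 56% of the summed TPM of all 45 members, and 86 to 90.9% of the summed TPM of the 11 MMP genes found by symbol in each library. Web 1 had the lowest MMP2 level in each limb.

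On TPM, the next most abundant members were inhibitors. This rank rests on the division by gene length, with lengths from an annotation that is not given. Mean CPM, which is not divided by length, was 123 for TIMP3 and 66.1 for TIMP2. It was 202 for ADAMTS1, 163 for ADAM17, 150 for ADAM10 and 124 for ADAM9. TIMP3, a matrix-bound inhibitor that also blocks ADAM17 and the aggrecan-cutting ADAMTS enzymes, averaged 334 ± 93.9 TPM. TIMP2, which inhibits MMPs and takes part in the surface activation of MMP2, averaged 210 ± 30.3 TPM. TIMP4 averaged 1.79 ± 0.302 TPM, and RECK, a membrane-anchored MMP inhibitor, 32.8 ± 5.21 TPM. The ratio of MMP2 TPM to the summed TPM of the 3 TIMP genes was 3.14, 2.86, 2.87 and 3.15 in forelimb webs 1 to 4 and 2.71, 2.87, 2.98 and 2.97 in hindlimb webs 1 to 4. The summed TIMP TPM itself ran from 407 in forelimb web 1 to 722 in forelimb web 3, so the ratio varied less across libraries than either of its terms. The size of the ratio also rests on gene lengths, as the mean CPM of MMP2 was 4088.

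Below these 3 genes, 17 members averaged 10 to 100 TPM, 21 averaged 1 to 10 TPM and 4, MMP13 included, averaged under 1 TPM, with a median of 6.73 TPM over all 45. ADAM17, which sheds tumour necrosis factor and ligands of the epidermal growth factor receptor, averaged 97.1 ± 10.8 TPM. ADAM9 averaged 54.6 ± 3.8 TPM, and ADAM10, which cuts Notch receptors, 47.7 ± 4.66 TPM. ADAM23 and ADAM22, which lack an active protease site and act in adhesion, averaged 4.38 ± 0.587 and 1.22 ± 0.423 TPM. Among the proteoglycanases, ADAMTS1 led with 76 ± 19.9 TPM, followed by ADAMTS9 with 17.8 ± 4.9 TPM, while ADAMTS5 averaged 1.4 ± 0.535 TPM and ADAMTS20 0.328 ± 0.142 TPM. The 3 enzymes named above for the mouse web thus differed widely in level here.

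The membrane-anchored MMPs found by symbol were led by MMP15 at 60.1 ± 8.4 TPM and MMP24 at 24.6 ± 1.6 TPM, and MMP17 averaged 0.479 ± 0.26 TPM. MMP11, stromelysin-3, averaged 53.3 ± 8.13 TPM, and MMP28, epilysin, an MMP of the epidermis, 31.3 ± 3.62 TPM. MMP1, a collagenase, averaged 1.01 ± 0.403 TPM. The procollagen N-propeptidases ADAMTS3 and ADAMTS2 averaged 33.6 ± 5.62 and 11.4 ± 1.33 TPM. ADAMTS19 and ADAMTS17, close paralogs of each other, led the other ADAMTS genes at 27.7 ± 10.5 and 26.1 ± 8.65 TPM. Among the ADAMTS-like proteins, which have no protease domain, ADAMTSL1 averaged 7.06 ± 1.57 TPM and ADAMTSL3 6.21 ± 0.526 TPM.

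**Figure D1:**
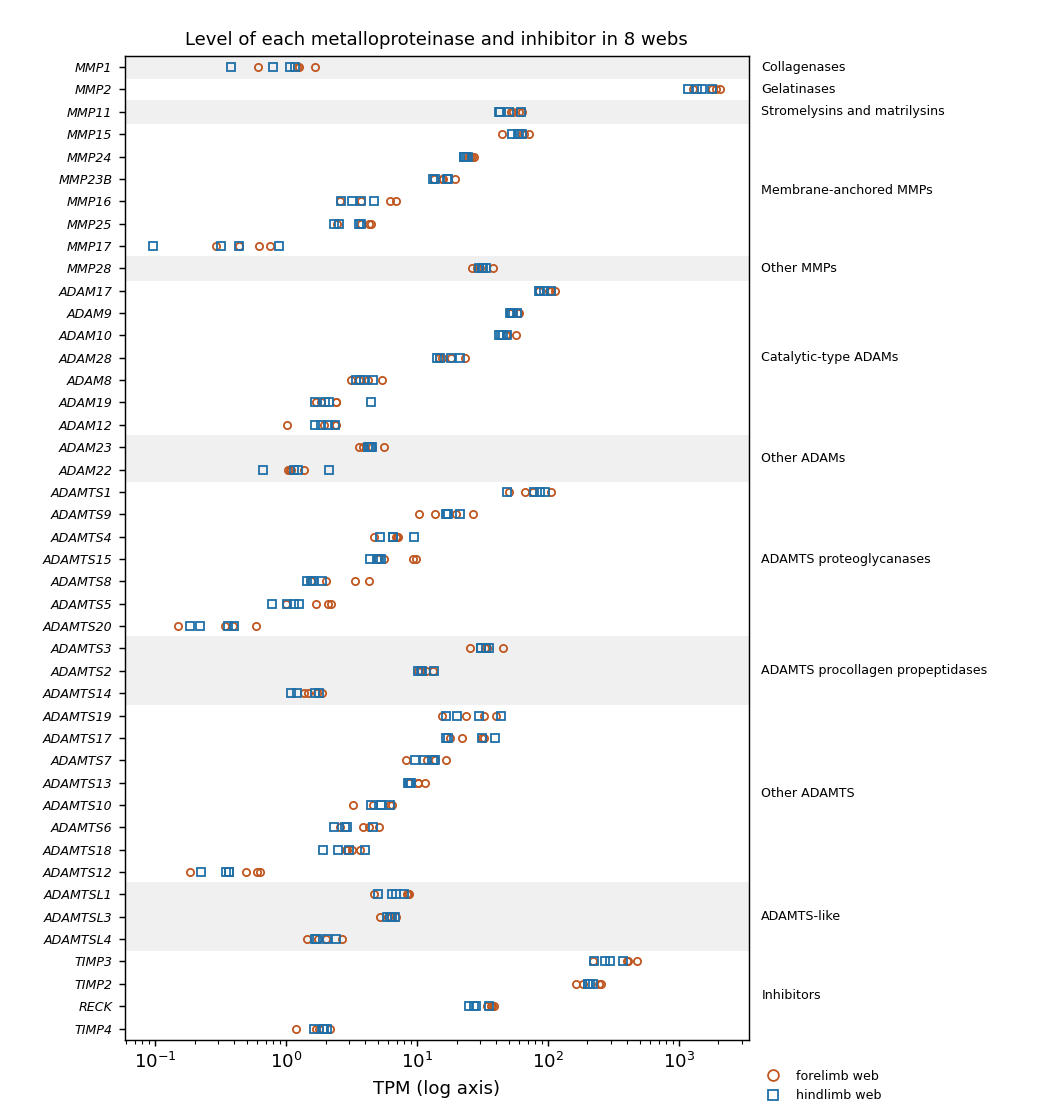
TPM (log axis) of each of the 44 members with counts, by role, with 1 circle per forelimb web and 1 square per hindlimb web. MMP2 stands apart at 1177 to 2071 TPM, and the TPM ranges of the limbs overlap for every member shown.

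The first comparison asked which members changed with web position, from web 1 toward web 4, with limb as a covariate (log2 CPM per web, edgeR quasi-likelihood test with Benjamini-Hochberg adjustment over all 14386 tested genes, called at an adjusted p of 0.05). Of the 44 tested members 8 passed (18.2%), beside 11.1% of all tested genes. Of these, 6 rose, beside 4.48% of all genes, and 2 fell, beside 6.65%. The median slope was 0.008 over the members and 0 over all genes. With scaling by library size, the calls over all genes moved from 644 rising and 956 falling to 482 and 1121, and on log2(TPM + 1) with limma to 377 and 1059. The members' calls were then 5 rising with 2 falling, and 5 rising with 1 falling. The test takes the 8 libraries as independent, whereas there are 4 positions, and if the limbs of a web vary together its p-values are too small. The counts of the limbs were also summed per web, an alternative chosen after seeing the data with 2 residual degrees of freedom. In that fit 806 genes and 5 members passed (ADAMTS17, ADAMTS19, ADAMTS6, TIMP3 and MMP16). The edgeR adjusted p of these members, in that order, was 0.0059, 0.0019, 0.043, 0.05 and 0.023. MMP2, ADAMTS7 and ADAMTS4 then had slopes of 0.19, -0.20 and 0.23 and an edgeR adjusted p of 0.061, 0.11 and 0.13.

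The gelatinase and an inhibitor rose toward web 4. From web 1 to web 4, MMP2 measured 3199, 4621, 5123 and 4709 CPM in the forelimb, and 2904, 3654, 3847 and 4649 CPM in the hindlimb. It rose by 0.20 ± 0.0403 per web (SE, edgeR adjusted p = 0.0094), 1.51-fold over the 3 steps. In the forelimb web 3 was highest and in the hindlimb web 4, and web 1 was lowest in each. TIMP3 measured 80.4, 144, 171 and 154 CPM along the forelimb webs and 80.4, 105, 111 and 142 CPM along the hindlimb webs, and rose by 0.28 ± 0.0567 per web (edgeR adjusted p = 0.0096), 1.77-fold. It followed the same order of webs as MMP2 in each limb.

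Both calls were lost without web 1 of both limbs and held without web 4 of both, fits with the same number of libraries and webs. In the hindlimb both genes rose at every step, and in the forelimb both were lower in web 4 than in web 3. The slope without web 1 was 0.10 for MMP2 (edgeR adjusted p = 0.42) and 0.13 for TIMP3 (adjusted p = 0.3). Without forelimb web 1, hindlimb web 1 or hindlimb web 4 alone, the edgeR adjusted p of MMP2 was 0.052, 0.07 and 0.057. For TIMP3 it was 0.054 without hindlimb web 1. TIMP2, TIMP4 and RECK did not pass, with slopes of 0.01 ± 0.0537, -0.03 ± 0.0822 and -0.01 ± 0.0375 in edgeR.

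Among secreted ADAMTS proteases, ADAMTS19 and ADAMTS17 rose at every step in both limbs, and no other member did. The share of all tested genes with such a rise was not counted. ADAMTS19, in which human variants cause heart valve disease, measured 33.4, 49.2, 68.3 and 90.5 CPM from web 1 to web 4 of the forelimb and 35, 45.7, 65.3 and 97.5 CPM in the hindlimb. It rose by 0.49 ± 0.0285 per web (edgeR adjusted p = 8.5e-06), 2.75-fold over the 3 steps. ADAMTS17, in which human variants cause a Weill-Marchesani-like syndrome of short stature and eye defects, stood at 29.4, 35.2, 50.8 and 56.9 CPM in the forelimb and 27.1, 30.2, 52.7 and 67.9 CPM in the hindlimb. Its slope was 0.41 ± 0.045 (edgeR adjusted p = 0.00024), 2.34-fold. For each, webs 3 and 4 of either limb lay above webs 1 and 2 of both, and the calls held in the 20 alternatives tried, with an adjusted p of at most 0.01 for ADAMTS19 and 0.034 for ADAMTS17.

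ADAMTS6, a protease of the fibrillin microfibril system, stood at 6.45, 9.28, 10.6 and 13.6 CPM in the forelimb and 5.69, 7.76, 7.22 and 12 CPM in the hindlimb, and rose by 0.33 ± 0.0591 per web (edgeR adjusted p = 0.0044). Web 4 was its highest library in each limb, and its slope was 0.30 without web 1 of both limbs (edgeR adjusted p = 0.13) and 0.27 without web 4 of both (adjusted p = 0.12). Its paralog ADAMTS10 had a slope of 0.11 ± 0.0861 and did not pass. ADAMTS4, a proteoglycanase, stood at 5.89, 8.36, 8.51 and 8.93 CPM and at 6.19, 8.75, 8.44 and 11.9 CPM, with a slope of 0.23 ± 0.0625 (edgeR adjusted p = 0.038). Web 1 was its lowest library in each limb. The call of ADAMTS4 was lost in 13 of 20 alternatives, with an adjusted p of 0.14 and 0.057 without forelimb web 1 or web 3, and of 0.19, 0.051 and 0.19 without hindlimb web 1, web 3 or web 4.

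ADAMTS1, the most abundant proteoglycanase, did not pass. It stood at 133, 193, 272 and 187 CPM in the forelimb and 126, 216, 256 and 237 CPM in the hindlimb, highest in web 3 and lowest in web 1 of each limb. Its slope was 0.25 ± 0.0805 (edgeR adjusted p = 0.07), and 0.36 without forelimb web 4 (adjusted p = 0.0071). Without web 1 of both limbs the slope was 0.02 (adjusted p = 0.95), and without web 4 of both it was 0.51 (adjusted p = 0.00011). ADAMTS8, ADAMTS9, ADAMTS15, ADAMTS5 and ADAMTS20 did not pass either, so of the 7 proteoglycanases 1 rose and 6 did not pass.

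MMP16 and ADAMTS7 fell. MMP16, a membrane-anchored MMP, stood at 33.8, 36.5, 20.3 and 14.9 CPM in the forelimb and 25.2, 21.7, 18 and 15 CPM in the hindlimb. Its slope was -0.35 ± 0.0614 (edgeR adjusted p = 0.0041), which puts the fitted web 4 level at 0.488 times that of web 1. The measured ratio was 0.442 in the forelimb and 0.595 in the hindlimb. Webs 3 and 4 lay below webs 1 and 2 in each limb. ADAMTS7, which cuts cartilage oligomeric matrix protein, stood at 37.7, 44.3, 32.3 and 23.8 CPM and at 37.2, 38.5, 31.7 and 27.8 CPM, with a slope of -0.20 ± 0.052 (edgeR adjusted p = 0.031). Web 2 was its highest library in each limb. The slope was -0.11 without web 4 of both limbs (edgeR adjusted p = 0.33) and -0.34 without web 1 of both (adjusted p = 0.011). Without single libraries it was -0.14 (adjusted p = 0.11, forelimb web 4), and -0.19, -0.20 and -0.21 (adjusted p = 0.059, 0.061 and 0.092, hindlimb webs 2, 3 and 4).

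**Figure D2:**
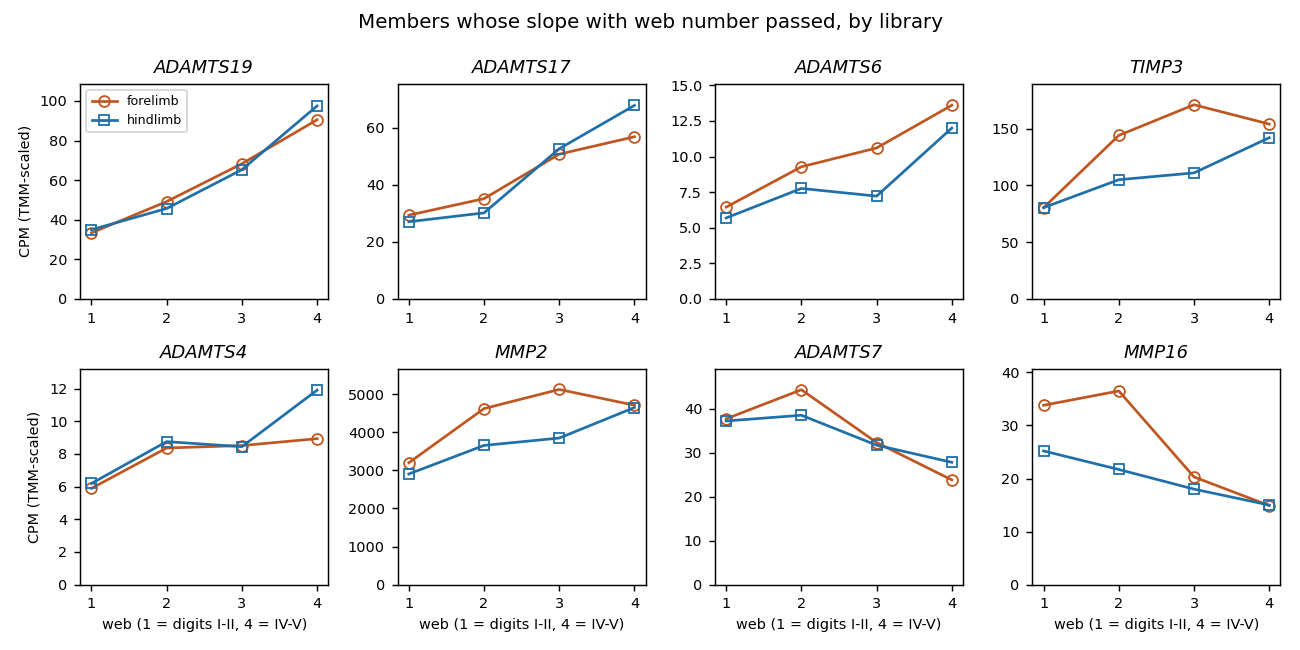
CPM by web number for the 8 members that passed the test of web position, with a line through the 4 forelimb webs and a line through the 4 hindlimb webs. ADAMTS19 and ADAMTS17 climb at every step in both limbs, while MMP2 and TIMP3 step up from web 1 and their forelimb lines peak in web 3.

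Among the ADAMs the largest slopes belonged to ADAM19 and ADAM12, the meltrins, which have active protease sites and are known from muscle and bone precursors. ADAM19 measured 3.88, 3.71, 2.7 and 3.16 CPM along the forelimb and 6.96, 3.37, 3.52 and 2.79 CPM along the hindlimb, with a slope of -0.27 ± 0.0957 (edgeR adjusted p = 0.1). Its hindlimb web 1 was the highest of the 8 libraries, and the slope was -0.36 ± 0.105 without forelimb web 4 (edgeR adjusted p = 0.045) and -0.12 ± 0.144 without web 1 of both limbs (adjusted p = 0.79). ADAM12 measured 1.61, 2.99, 3.8 and 3.99 CPM and 2.92, 2.81, 3.86 and 3.44 CPM, with a slope of 0.26 ± 0.104 (edgeR adjusted p = 0.14). It climbed at every step in the forelimb and varied little in the hindlimb. ADAM28, known from lymphocytes in humans, ranged from 21.6 to 33.2 CPM and was highest in web 1 of each limb, with a slope of -0.12 ± 0.0551 (edgeR adjusted p = 0.22). Its slope was -0.20 ± 0.0518 without hindlimb web 4 (adjusted p = 0.047), -0.26 ± 0.0617 without web 4 of both limbs (adjusted p = 0.02) and 0.04 ± 0.0717 without web 1 of both (adjusted p = 0.89).

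MMP25, a membrane-anchored MMP of leukocytes, did not pass, with 3.05, 3.01, 2.61 and 1.83 CPM along the forelimb webs, 2.59, 2.7, 1.86 and 1.71 CPM along the hindlimb webs and a slope of -0.24 ± 0.0974 (edgeR adjusted p = 0.16). Webs 3 and 4 lay below webs 1 and 2 in each limb, the order also seen for MMP16. ADAMTS20 ranged from 0.658 to 2.43 CPM and was lowest in web 4 of the forelimb and web 2 of the hindlimb. ADAMTS13, the protease of von Willebrand factor, stayed within 22.8 to 29.8 CPM, ADAM9 within 112 to 137 CPM and ADAMTSL3 within 23.5 to 28.6 CPM. MMP24 was the most even member by the ratio of its highest to its lowest library, 1.12.

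Counted by role, most classes held no passing member. Of the 6 membrane-anchored MMPs, 1 fell and 5 did not pass, with a median slope of -0.14. The 7 ADAMs with an active protease site, the 2 without, the 3 procollagen propeptidases and the 3 ADAMTS-like genes did not pass. Of the 8 other ADAMTS genes, 3 rose, 1 fell and 4 did not pass, with a median slope of 0.12. ADAM10 was among the most even members, at 138 to 164 CPM with a slope of 0.00 ± 0.0245.

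**Figure D3:**
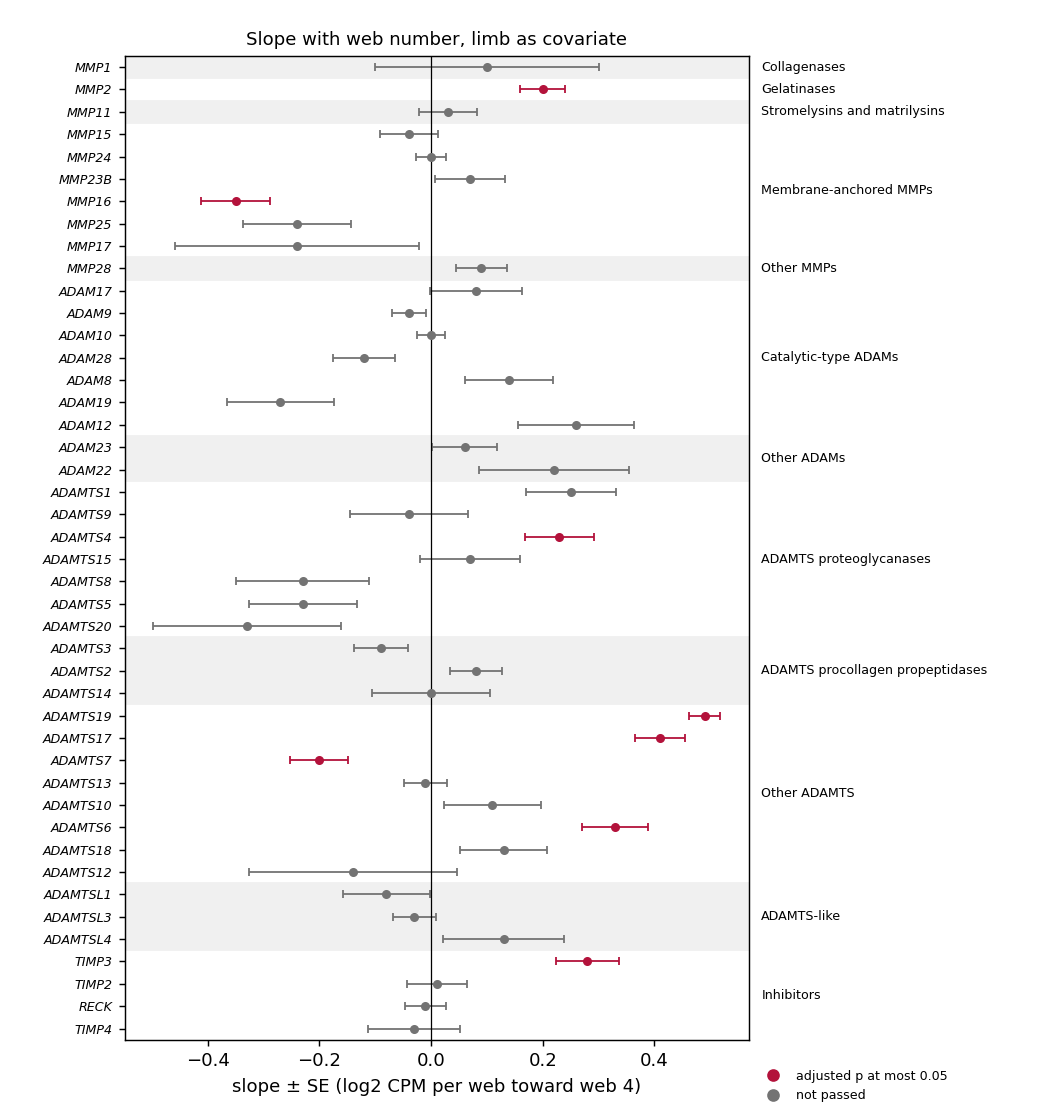
Slope with web number ± SE (log2 CPM per web, limb as covariate) of the 44 tested members, grouped by role, with calls at an adjusted p of 0.05 in red. The 6 rising and 2 falling members come from 5 of the 12 classes.

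Several cell type markers moved along the same axis, on which 4.48% of all tested genes rose and 6.65% fell. Of the macrophage markers, 4 of 6 fell, and their summed CPM was 158, 109, 63.8 and 71.2 in the forelimb and 138, 98.8, 69.1 and 80 in the hindlimb. Endothelial markers fell in 3 of 6, nerve and Schwann cell markers in 2 of 4, pigment cell markers in 1 of 5 and limb mesenchyme markers (MSX1, PRRX1 and MSX2) in 3 of 5. TP63 of the 3 epidermal markers and COL2A1 of the 5 cartilage markers rose, while SOX9 of the cartilage markers fell. The 4 muscle and 2 erythroid markers did not pass. Of the osteoclast markers CTSK fell and 3 others did not pass, OCSTAMP had 0 counts and ATP6V0D2 reached at most 0.307 CPM. The part of these cell types in the members' slopes was not tested.

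Fitted alone, the forelimb gave 2 member calls (4.55%, beside 2.12% of all genes) and the hindlimb 7 (15.9%, beside 7.48%). ADAMTS17 and ADAMTS19 were called in each limb. The hindlimb also called MMP2, TIMP3, MMP16, ADAMTS1 and ADAM17. A call in 1 limb is not a difference between limbs, which the interaction of limb and web tested directly. No gene of the 14386 passed that test (0%, edgeR; 558 at an unadjusted p under 0.05), and 0 of 44 members did, with 1 at an unadjusted p under 0.05. DESeq2 called 1 gene and 0 members.

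The member with the lowest interaction p was ADAM17, with 164, 220, 162 and 132 CPM along forelimb webs 1 to 4 and 124, 130, 152 and 221 CPM along the hindlimb webs. It peaked in web 2 of the forelimb and rose to web 4 in the hindlimb, and the slopes differed by 0.42 ± 0.111 (edgeR unadjusted p = 0.0037, adjusted p = 1.0). The deposited TPM of ADAM17 was 102, 113, 106 and 85.6 in the forelimb and 87.5, 85.1, 92.4 and 105 in the hindlimb. On log2(TPM + 1) the difference of slopes was 0.17 ± 0.0706 (limma adjusted p = 1.0). The ratio of TPM to CPM departed from its median by -0.30 in forelimb web 2 and -0.42 in hindlimb web 4 on the log2 scale, and by at most 0.18 in any library for the other members. The highest CPM values of ADAM17 were thus those least matched in the TPM table. ADAMTSL1 and ADAMTS8 followed with differences of 0.28 ± 0.137 and 0.40 ± 0.213 (edgeR adjusted p = 1.0 each). Leaving out single libraries moved these differences from 0.28 without forelimb web 4 to 0.64 without forelimb web 1 for ADAM17, from 0.07 without forelimb web 4 to 0.43 without forelimb web 1 for ADAMTSL1, and from 0.32 without forelimb web 2 to 0.64 without forelimb web 1 for ADAMTS8.

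**Figure D4:**
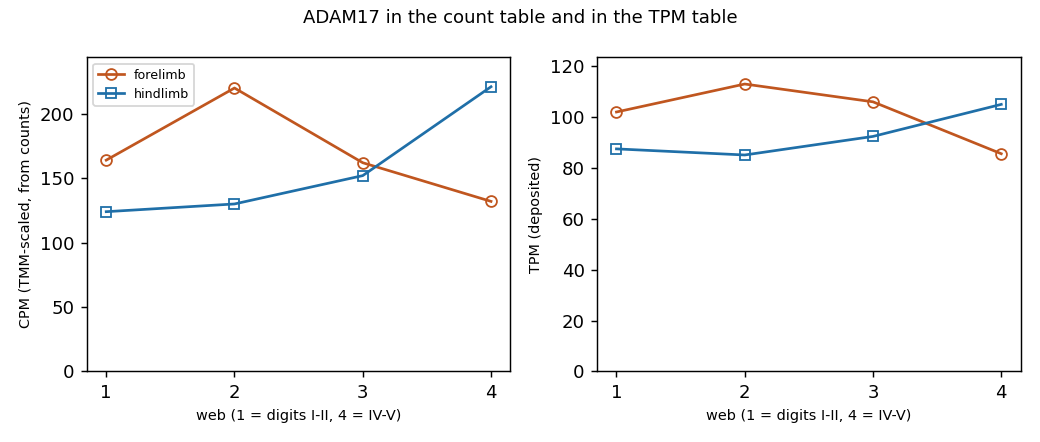
ADAM17 by web number in TMM-scaled CPM from the counts (left) and in deposited TPM (right), with a line per limb. The peaks at 220 CPM in forelimb web 2 and 221 CPM in hindlimb web 4 are flatter on the TPM scale, at 113 and 105 TPM.

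The second comparison set the hindlimb webs against the forelimb webs, with the 4 web positions of a limb in place of replicates. No member passed (0 of 44, edgeR), beside 3 of all tested genes (0.0209%), and DESeq2 called 0 members. At an edgeR unadjusted p under 0.05 lay 4 of 44 members, beside 581 of all 14386 genes (4.04%). With web number as a block, 24 genes passed (0.167%) and again 0 members. At an unadjusted p under 0.05 in that fit lay 8 of 44 members, beside 1277 of all 14386 genes (8.88%). In both fits this was a larger share of the members than of all genes, which was not tested. The log2 fold change was negative for 27 of 44 members (61.4%) and for 51.6% of all genes, with medians of -0.041 and -0.006.

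RECK had the lowest p, with 89.2, 97.5, 96.7 and 101 CPM along forelimb webs 1 to 4 and 90.5, 69.5, 73.2 and 77.1 CPM along the hindlimb webs. Hindlimb webs 2 to 4 lay below every forelimb web, and web 1 of the hindlimb lay among them. The log2 fold change was -0.31 ± 0.087 (edgeR adjusted p = 1.0, and 0.29 with web as a block). ADAMTS15, a proteoglycanase, stood at 10.5, 19.6, 19.1 and 12.4 CPM in the forelimb and 10, 9.61, 11.4 and 11.2 CPM in the hindlimb. Its log2 fold change was -0.55 ± 0.202 (edgeR adjusted p = 1.0, and 0.39 with web as a block). The forelimb excess lay in webs 2 and 3.

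ADAMTS5, the proteoglycanase known for aggrecan cleavage, stood at 4.97, 4.53, 3.78 and 2.38 CPM and at 2.77, 2.75, 1.82 and 2.39 CPM. Its log2 fold change was -0.69 ± 0.265 (edgeR adjusted p = 1.0, and 0.43 with web as a block). Forelimb web 4 lay within the hindlimb range. For MMP2 and TIMP3, whose limbs were closest in webs 1 and 4 and furthest apart in webs 2 and 3, the log2 fold changes were -0.23 ± 0.168 and -0.32 ± 0.23. Leaving out single libraries moved them from -0.12 (hindlimb web 1) to -0.36 (forelimb web 1) for MMP2, and from -0.20 (forelimb web 3 or hindlimb web 1) to -0.51 (forelimb web 1) for TIMP3. With web as a block they were -0.23 ± 0.0726 and -0.30 ± 0.0949 (edgeR adjusted p = 0.39 each).

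For 2 members, ADAM10 and MMP24, the 4 hindlimb libraries lay below the 4 forelimb libraries (4.55%, beside 1.33% of all genes), and for 0 members above (beside 1.47%). Their differences were small. The forelimb and hindlimb means of ADAM10 were 157 ± 5.55 and 144 ± 4.28 CPM, and those of MMP24 56.1 ± 1.51 and 52.4 ± 0.869 CPM. Each SD is over the 4 web positions of a limb (n = 4 each). On TPM the limbs overlapped for both, at 47.8 to 57.4 and 42 to 48.8 TPM for ADAM10 and 24.4 to 27.4 and 22.8 to 24.5 TPM for MMP24. Web by web, 7 members had the lower hindlimb value at all 4 positions (15.9%, beside 9.07% of all genes): ADAM10, ADAMTS6, ADAMTS13, ADAMTS15, MMP2, MMP24 and MMP25. No member had the higher hindlimb value at all 4, beside 8.51% of all genes. Erythroid markers summed to 1254 to 2286 CPM in the forelimb and 667 to 1324 CPM in the hindlimb, and pigment cell markers to 88.6 to 110 and 69.5 to 79.6 CPM. Of the erythroid sums, HBZ alone held 1239 to 2252 and 658 to 1298 CPM. The part of these markers in the members' limb differences was not tested.

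**Figure D5:**
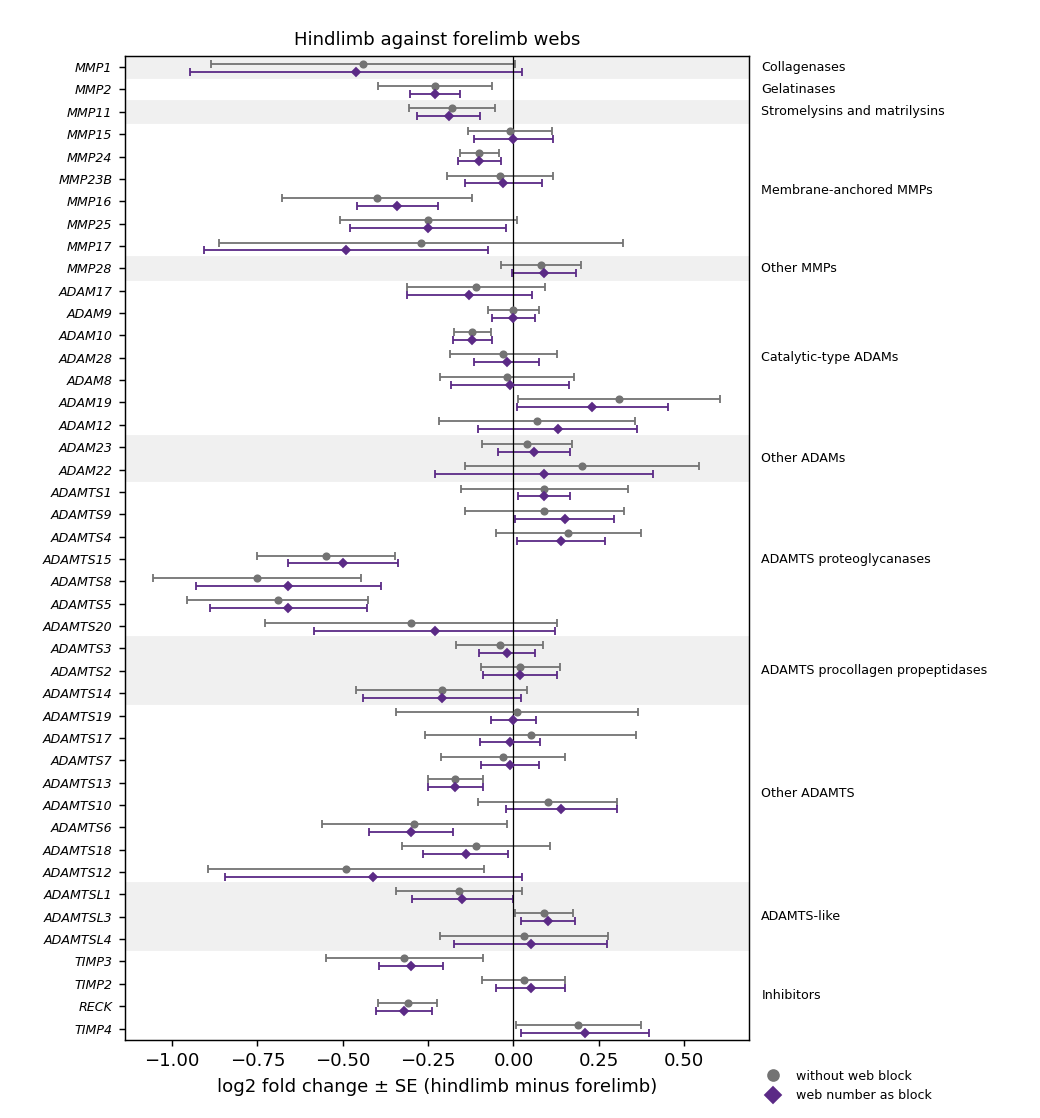
Log2 fold change of hindlimb against forelimb ± SE for the 44 tested members by role, without (grey circles) and with (purple diamonds) web number as a block. No member passed in either fit, and 27 of 44 lie below 0.

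The last comparison set webs 2 and 3 against webs 1 and 4, since a straight line misses genes that peak or dip in the middle of the foot. No member passed (0 of 44, edgeR), beside 1 of all genes (0.00695%), and DESeq2 called 39 genes and 0 members. At an edgeR unadjusted p under 0.05 lay 6 of 44 members, beside 873 of all 14386 genes (6.07%). The larger share of the members was not tested. ADAMTS9, a versican-cutting protease, had the lowest p, with 43.7, 82.1, 62.5 and 35 CPM along forelimb webs 1 to 4 and 52.1, 58.7, 70.2 and 56.2 CPM along the hindlimb webs. Webs 2 and 3 lay above webs 1 and 4 in each limb, by a log2 fold change of 0.56 ± 0.157 (edgeR unadjusted p = 0.0064, adjusted p = 0.8).

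ADAMTS18, an orphan protease, stood at 10.5, 9.09, 9.52 and 12.8 CPM in the forelimb and 9.9, 6.66, 8.53 and 13.8 CPM in the hindlimb. Webs 2 and 3 lay below webs 1 and 4 in each limb, by -0.48 ± 0.158 (edgeR adjusted p = 0.8). MMP17, a membrane-anchored MMP near the filter, stood at 1.66, 0.923, 0.621 and 1.44 CPM and at 1.9, 0.733, 0.216 and 0.993 CPM, a log2 fold change of -1.30 ± 0.462 (edgeR adjusted p = 0.8).

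Other genes of pericellular proteolysis were counted for web position from lists matched by symbol. Beside these counts, 4.48% of all tested genes rose and 6.65% fell. PHEX, an endopeptidase of mineralising tissue, and ECE1, which activates endothelin, rose, and PCOLCE and PCOLCE2, enhancers of procollagen C-propeptide removal, fell, among 10 tested metalloendopeptidases and their enhancers. The mean of the limbs for PHEX was 10.9 CPM at web 1 and 150 CPM at web 4, a slope of 1.37 ± 0.163 (edgeR adjusted p = 0.00038), and for ECE1 85.3 and 127 CPM, a slope of 0.19 ± 0.0335 (edgeR adjusted p = 0.0045). Of 8 genes of propeptide cleavage and ADAM transport, TSPAN5, a tetraspanin that carries ADAM10 to the surface, rose from 46.7 to 77.9 CPM (slope 0.25 ± 0.0486, edgeR adjusted p = 0.0062) and 7 did not pass. ADAM10 itself stayed within 138 to 164 CPM.

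Of 10 matrix substrates, COL2A1 and FBN2 rose by 0.19 ± 0.0415 and 0.17 ± 0.0479 per web, COL4A1 fell by 0.33 per web, and 7 did not pass. Of 10 shed surface proteins, NOTCH1 and ERBB2 fell, with slopes of -0.17 ± 0.0477 and -0.14 ± 0.0372. Of 4 other protease inhibitors, TFPI2 and SPOCK3 fell, with slopes of -0.48 ± 0.133 and -0.16 ± 0.0389, and of 4 cathepsins CTSK fell, with a slope of -0.26 ± 0.0497. PLAT, SERPINE2 and SERPINF2 of the plasminogen system did not pass. In the limb comparison no gene of these lists passed in edgeR.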

How the data were processed

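RNA from 8 pooled libraries was measured per gene. The authors deposited a table of counts, which were whole numbers and not normalised, and a table of TPM with gene symbols, which divides by gene length and carries no depth. HISAT2 2.2.1 and StringTie 2.1.7 were used, per the submitters' processing notes. The build, annotation and strand setting are not given in the sources used here. Overlapping and antisense genes can therefore not be told apart. Multiples of 4 made up 35.5% of the 20472 counts from 1 to 40, where 25% would be even. The counting unit is therefore unclear and was not tested. Counts cannot be taken as independent reads, and counting intervals are left out. Libraries held 53116512 to 65849337 counts, which limits precision for genes near the filter.

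The counts were tested with edgeR 4.0.16 in R 4.3.3 after filterByExpr by limb (minimum count 10, minimum total 15), which left 14386 genes, and TMM scaling. CPM values are TMM-scaled. Quasi-likelihood tests had limb alone, limb with web number, their product, or limb with middle against outer webs, with 6, 5, 4 and 5 residual degrees of freedom, and Benjamini-Hochberg adjustment over all tested genes at 0.05. SE is the log2 fold change over the root of F. The tests were tried on counts simulated independently for each library. That trial does not show how the tests behave if the limbs of a web vary together. Alternatives were DESeq2 1.42.0, its size factors in edgeR, library-size scaling, no count filter, a robust prior, limma 3.58.1 on log2(TPM + 1) and log2(TPM + 0.1), leaving out each library, either end web or a limb, and web number as a block. Summing the limbs per web was added after seeing the data.

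Per the series' design text all pools come from the same 20 individuals, so shared animals do not single out same-numbered webs. Web number paired the libraries only in the alternative fits with web as a block. After removing limb means the same-numbered libraries correlated (r = 0.498, 0.189, 0.242 and 0.327, web 1 first), which includes any effect of position. Some neighbouring webs correlated nearly as much as webs 2 and 3 did. Forelimb web 2 with hindlimb web 1 gave r = 0.184, and forelimb web 3 with hindlimb web 4 gave 0.237. Unmatched pairs went as low as -0.375 (forelimb web 1 with hindlimb web 4). Members, role classes, gene lists and cell markers were chosen with earlier results of these data known. Genes were named where they passed, where they had the 3 lowest p of a comparison in which none passed, and where they were among the 2 most abundant of a role, with all inhibitors; other members were named after their values were seen. In RefSeq's ASM4963464v1 annotation, 41 of the 45 symbols were found, and ADAM28, MMP1, MMP11 and MMP13 were not. It was used for names and neighbours only, and sequences were not used here. Part of the plasminogen list is not reported here.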

Additional observations from a re-analysis of the deposited data

Results flagged for a closer look

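In 2 cases a web stood far from the other 3 webs of their limb. ADAMTS2, a procollagen N-propeptidase, was highest in hindlimb web 4 at 25.8 CPM, with a gap to the next web of 0.865 of the group's range. ADAMTSL1 was lowest in forelimb web 4 at 15.1 CPM, with a gap of 0.95 of the range. Both gaps exceed Dixon's 95% critical value for 4 samples. In all, 88 groups of 4 webs were examined. Chance flags about 1 in 20 where the 4 values are replicates, and the 2 flags are no more than that rate gives. The 4 webs of a limb are different positions and not replicates.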

How the results depend on the processing

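With web number as a replicate block, the limb comparison called 24 genes instead of 3 and the interaction 1 instead of 0, and no call of a member changed. DESeq2 called 18 genes for limb, 1 for the interaction and 39 for middle against outer webs, where edgeR called 1 and library-size scaling and limma on either TPM scale called 0. Members called in these 3 comparisons were 0 in every alternative run. Leaving out each library gave 3 to 4 genes for limb, 0 to 2 for the interaction and 0 to 1 for middle against outer webs. For web position, 1600 genes and 8 members were called, against 305 and 2 in the forelimb alone and 1076 and 7 in the hindlimb alone. Without web 1 of both limbs 681 genes and 5 members were called, and without web 4 of both 1740 and 8. Leaving out each library gave 888 to 1890 genes and 5 to 9 members (1023 genes without forelimb web 1 and 888 without hindlimb web 1). With the limbs summed per web, chosen after seeing the data, 806 genes and 5 members were called for web position and 0 genes for middle against outer webs. Web position admits no replicate block, since web number is the tested term. For 20 results (the 8 slope calls, the slope of ADAMTS1 and 11 results of the other comparisons), 356 recomputed values kept their sign, 36 lost a call and 3 gained one, each of the 3 for ADAMTS1. Slopes outside these 20 did turn: without web 1 of both limbs that of ADAM28 went from -0.12 to 0.04 and that of MMP17 from -0.24 to 0.27, and without web 4 of both that of ADAMTS18 from 0.13 to -0.09. Also outside these 20, ADAM19 passed without forelimb web 4 (-0.36 ± 0.105, edgeR adjusted p = 0.045) and ADAM28 without hindlimb web 4 (-0.20 ± 0.0518, adjusted p = 0.047). MMP17 passed without web 4 of both limbs (-1.10 ± 0.301, edgeR adjusted p = 0.037), and ADAMTS18 without web 1 of both (0.38 ± 0.0959, adjusted p = 0.05). Each of these fits held fewer libraries, and the causes of the changes were not tested. Depth limits MMP1, MMP17, ADAMTS12 and ADAMTS20 most, each near 1 CPM.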

Other observations

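In RefSeq's ASM4963464v1 annotation, ADAMTS1 and ADAMTS5 were neighbours with 0 protein-coding genes between them, as were ADAMTS8 and ADAMTS15. The neighbours differed in level: ADAMTS1 averaged 76 TPM and ADAMTS5 1.4 TPM, and ADAMTS15 averaged 6.19 TPM and ADAMTS8 2.21 TPM. Along the webs, ADAMTS1 and ADAMTS5 had slopes of 0.25 ± 0.0805 and -0.23 ± 0.0966, and ADAMTS15 and ADAMTS8 of 0.07 ± 0.0894 and -0.23 ± 0.119, none of which passed in edgeR.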
